A study of Drosophila melanogaster with 3 samples.

Results

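Of 4770 sites recovered with CG11695-eGFP from fly embryos, 1085 (22.7%) lay deep inside introns. Each of these distal intronic peaks had its summit inside an annotated gene, in no exon of any transcript, and more than 2000 bp from every transcription start site (TSS). The choice used position alone and no measured value. The 3 peaks just inside the limit lay 2003, 2004 and 2004 bp from a TSS, with signals of 194, 123 and 96.9. The 3 just outside lay at 1990, 1989 and 1984 bp, with signals of 102, 168 and 308. The assay was chromatin immunoprecipitation with sequencing, on whole embryos of Drosophila melanogaster aged 0 to 24 hours, with chromatin sonicated to 200 to 800 bp. CG11695 is a ZAD family zinc finger protein, expressed here from a transgene with an eGFP tag (a green fluorescent protein), and the antibody was raised against GFP. There were 3 biological replicates, all of this 1 genotype, stage and treatment. No input, mock or untagged sample was analysed here, and a whole embryo mixes all cell types and stages, so sites recovered in any precipitation cannot be told apart from sites bound by the protein.

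Introns of flies hold many enhancers, the stretches of DNA that raise transcription of a gene from a distance. Long first introns are known as places where such elements gather, above all in genes that control development. ZAD zinc finger proteins are a large insect family of DNA-binding proteins, named after a domain at the start of the protein through which they pair with each other. A peak summit is the base where the recovered fragments pile up highest.

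The sequence at the summits was rich in A and T. The plus strand within 50 bp of the summit is shown for 5 of the 6 strongest distal intronic peaks that were in the own list of every replicate, on arms 2L, 3L, 3R and X. Names are those of the host genes, and positions are on dm6. Capitals mark ATATTA on either strand, and likewise AAATAT and the TATA box core TATAAA.
Tlk (chrX:3742155-3742255): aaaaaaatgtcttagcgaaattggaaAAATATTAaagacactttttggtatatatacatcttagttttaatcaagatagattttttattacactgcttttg
cic (chr3R:20261584-20261684): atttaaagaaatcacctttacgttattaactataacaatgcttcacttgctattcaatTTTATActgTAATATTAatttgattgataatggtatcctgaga
CG32486 (chr3L:3060759-3060859): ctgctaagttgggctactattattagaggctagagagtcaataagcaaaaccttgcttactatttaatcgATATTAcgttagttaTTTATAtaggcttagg
Gug (chr3L:8458269-8458369): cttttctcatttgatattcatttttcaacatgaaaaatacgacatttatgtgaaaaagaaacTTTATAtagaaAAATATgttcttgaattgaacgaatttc
lili (chr3R:24811016-24811116): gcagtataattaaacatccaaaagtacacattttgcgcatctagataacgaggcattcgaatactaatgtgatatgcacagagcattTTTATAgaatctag
These windows held 22.8% G and C at Tlk, 24.8% at cic, 33.7% at CG32486, 22.8% at Gug and 33.7% at lili.

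A second pattern lay to either side of the summit, where copies of ACAGTG faced each other. It is shown for 2 of the 3 strongest peaks of the kind (in every own list, a copy on each side at 50 to 150 bp pointing toward the summit, on the same arms), with 6 bases beyond the outermost copies. This selection was made after the values were seen. Capitals mark ACAGTG left of the summit and its reverse complement CACTGT right of it.
cic (chr3R:20261540-20261745): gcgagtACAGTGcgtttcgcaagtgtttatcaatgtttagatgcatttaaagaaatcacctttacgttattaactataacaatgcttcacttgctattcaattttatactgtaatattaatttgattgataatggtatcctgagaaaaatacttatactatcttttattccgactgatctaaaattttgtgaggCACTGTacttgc
CG32264 (chr3L:3785136-3785321): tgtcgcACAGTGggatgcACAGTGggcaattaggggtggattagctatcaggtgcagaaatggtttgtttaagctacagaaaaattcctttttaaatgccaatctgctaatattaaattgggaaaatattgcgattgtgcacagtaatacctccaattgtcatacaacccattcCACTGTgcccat
Between the innermost capitals lay 182 bases with 27.5% G and C at cic and 150 bases with 36.0% at CG32264. Of all 1085 distal intronic peaks, 27 had such a pair and were in every own list, 25 of them on these arms. These stretches were read from the RefSeq copy of the assembly.

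The strongest distal intronic peak that repeated in every own list stood in the first intron of CG12769 (chromosome 2R, 8060855 to 8061190). The signal of a peak is the authors' value, its scale is not stated, and it was compared only within a list. The CG12769 peak, 2460 bp from a TSS, had a signal of 1101 in the main list, rank 25 of 4770. In the ranked lists of replicates 1, 2 and 3 it had 437, 362 and 297, at ranks 29, 29 and 32. Tlk, which encodes Tousled-like kinase, a nuclear kinase of chromatin assembly, followed with 1004 in the main list (X, 3742057 to 3742370). Its replicates gave 383, 339 and 290. The peak in cic, the gene of the repressor Capicua (3R, 20261472 to 20261807), had 941 in the main list and 372, 310 and 251 in replicates 1, 2 and 3. It lay 8864 bp from the nearest TSS and 7781 bp from the nearest exon. In all 3 of these peaks replicate 1 was highest and replicate 3 lowest, and lists of different replicates are not on one scale.

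The gene simj, for a subunit of the Mi-2/NuRD chromatin complex, held a pair of the 15 strongest repeated peaks. Its stronger peak had 841 in the main list and 350, 273 and 209 in replicates 1, 2 and 3. The other (3L, 10678585 to 10678936) had 613 in the main list and 262, 157 and 209 in the replicates. In this second peak replicate 2 was lowest. Raf, the kinase that links Ras to the MAP kinase cascade, also held 2 of the 15. These peaks (X, 2300539 to 2300860 and 2297590 to 2297846) had 611 and 555 in the main list and lay in no first intron. Their replicate values were 227, 211 and 176 for the first and 237, 183 and 144 for the second. They were the only 2 of the 15 strongest repeated peaks outside a first intron.

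Among the other hosts, Hr3, Gug, shn and sbb encode regulators of transcription. The share of such genes among all hosts or all genes was not counted. The peak in the overlapping genes CG12912, Hr3 and CG46321 (2R, 10219933 to 10220217) had 726, and Hr3 is a nuclear receptor of the ecdysone cascade. CG32486 (3L, 3060665 to 3060942) had 721. Gug, the gene of the co-repressor Atrophin (3L, 8458173 to 8458474), had 672. The peaks in lili (3R, 24810927 to 24811194) and CG13894 (3L, 696808 to 697075) had 658 and 607. The gene shn, for a zinc finger cofactor of Dpp signalling (2R, 11207089 to 11207438), had 576. Usp15-31 (2R, 24748821 to 24749145) and sbb, for a nuclear co-repressor (2R, 18338358 to 18338616), had 540 and 528. The sbb peak was the farthest of the 15 from a TSS, at 18805 bp. Over the 15 peaks the ranks ran from 29 to 212 in replicate 1, from 29 to 225 in replicate 2 and from 32 to 234 in replicate 3.

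**Figure D1:**
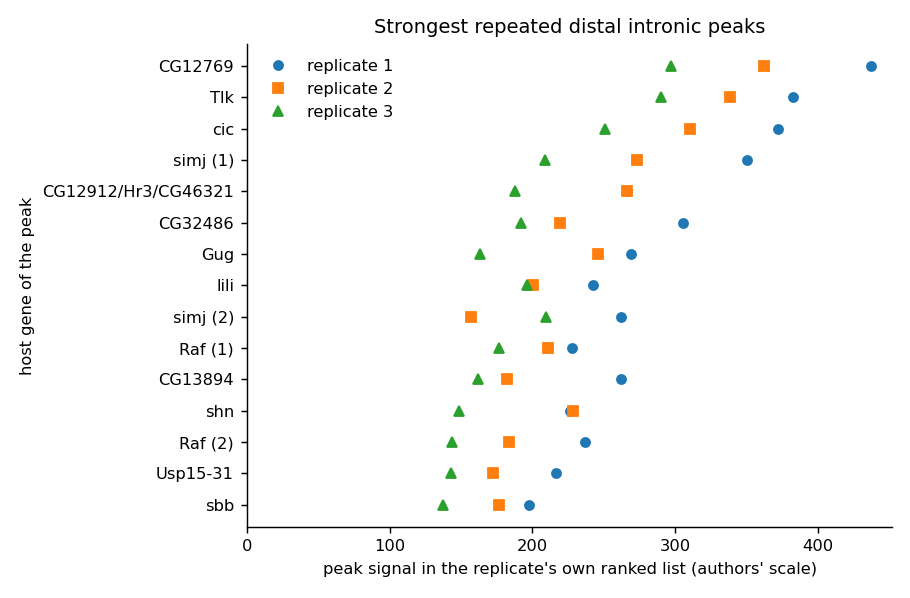
Peak signal in each replicate's own ranked list (horizontal axis, authors' scale) for the 15 strongest distal intronic peaks found in every own list, named by host gene, strongest at the top; points are replicates. CG12769 leads at 437, 362 and 297 in replicates 1, 2 and 3, and sbb at the bottom has 198, 176 and 138.

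Distal intronic peaks repeated less often than peaks nearer to a TSS. A peak counted as repeated when it overlapped a peak of each replicate's own thresholded list by 1 bp or more. That held for 362 of 1085 distal intronic peaks (33.4%). Among promoter peaks, those 500 bp or less from a TSS, it held for 850 of 2150 (39.5%), a difference of -6.17 percentage points (Fisher's exact test, two-sided, adjusted p = 0.00167). Among intronic peaks at 500 to 2000 bp it held for 321 of 787 (40.8%; difference -7.42 points, Fisher's exact, adjusted p = 0.00167). Intergenic peaks had 179 of 603 (29.7%), and the difference of 3.68 points did not pass (Fisher's exact, adjusted p = 0.128). Without replicate 3, counting overlap in the other 2 own lists, the difference from promoter peaks was -3.70 points and did not pass (Fisher's exact, adjusted p = 0.0711). Of the distal intronic peaks, 202 were in 2 own lists, 243 in 1 and 278 in none. The main list was called on pooled libraries, so its peaks need not reach the threshold in a single one.

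Signals of distal intronic peaks had a median of 117 and ran from 2.96 to 1101 in the main list. By replicate, 1084, 1063 and 1081 of them overlapped a record in the ranked lists of replicates 1, 2 and 3, with medians of 48.7, 38.7 and 36.7. A peak was given the signal of the strongest record that it overlapped, so peaks close together can share a record. Across these peaks the log2 signals of replicates correlated with Pearson's r of 0.793 (replicates 1 and 2, 1062 peaks), 0.772 (1 and 3, 1080 peaks) and 0.720 (2 and 3, 1059 peaks), and Spearman's rho of 0.757, 0.659 and 0.665. These values describe sites and carry no p, since sites share the library and the IDR step favours like ranks. The share of peaks above the main list's median signal was 48.2% of distal intronic peaks, against 51.8% of promoter peaks, 52.5% of intronic peaks at 500 to 2000 bp and 46.3% of intergenic peaks. None of these differences passed Fisher's exact test (adjusted p = 0.113, 0.113 and 0.476). The difference from promoter peaks did pass in both other pair lists, at -8.15 points without replicate 3 and -9.27 without replicate 1 (Fisher's exact, adjusted p = 3.81e-05 and 8.91e-06). At a global IDR of 0.001 or less, the differences from promoter and nearer intronic peaks were -16.2 and -14.7 points and passed (Fisher's exact, adjusted p = 3.34e-10 and 4.94e-06). Among the members, 87 stood within 250 bp of a stronger record, with a median signal of 14.5, against 124 for the other 998.

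Distance from the promoter marked out where the peaks lay even beyond the 2000 bp of the rule. Introns offered 41.4 Mb of sequence that met the rule, and the peaks numbered 26.2 per Mb of it. The own lists gave 15.3 ± 2.74 per Mb (SD, n = 3). For comparison, the intronic sequence at 500 to 2000 bp had 68.9 peaks per Mb, promoters 119 and intergenic sequence 16.6. Within the distal introns, stretches at 2 to 5 kb from a TSS held 514 peaks, 1.49 times their share of the bases (exact binomial test, adjusted p = 1.68e-26). The ratio was 1.16 at 5 to 10 kb (337 peaks, exact adjusted p = 0.00198), 0.819 at 10 to 20 kb (184 peaks, exact adjusted p = 0.00211) and 0.389 at 20 to 50 kb (50 peaks, exact adjusted p = 3.53e-16). Beyond 50 kb no summit was found in 3.73 Mb (exact adjusted p = 3.33e-44). In the own lists the ratios of these classes were 1.56 ± 0.0631, 1.12 ± 0.0305, 0.750 ± 0.0479, 0.439 ± 0.0168 and 0 (SD, n = 3). The call at 5 to 10 kb was lost in 4 alternatives. Its ratio was 1.11 and 1.10 in the own lists of replicates 2 and 3, 1.12 at a global IDR of 0.001 or less, and 1.05 with transposable elements counted as genes. Bases in repeat-masked sequence made up 20.4% of the nearest class and 38.1% of the class beyond 50 kb. With masked summits and bases left out, all 5 classes still passed.

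Close to exons the peaks were sparse. Within 200 bp of an exon stood 22 of them, 0.226 times the share of bases (exact binomial test, adjusted p = 2.85e-20), and at 200 to 500 bp stood 46, 0.604 times (exact adjusted p = 0.000207). The density was highest at 1000 to 2000 bp, with 223 peaks and a ratio of 1.49 (exact adjusted p = 1.12e-09), and at 2000 to 5000 bp, with 434 and a ratio of 1.37 (exact adjusted p = 1.00e-13). Beyond 5000 bp it was 0.732 (260 peaks, exact adjusted p = 6.12e-10). The class at 500 to 1000 bp, at 1.11, did not pass (exact adjusted p = 0.297). The median distance was 2645 bp to the nearest exon and 5229 bp to the nearest TSS.

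First introns carried most of the peaks. An intron counted as first when it was the first of any transcript. First introns held 650 of 1085 peaks (59.9%) and 37.6% of the bases, a ratio of 1.59 (exact binomial test, p = 5.22e-50). The own lists gave 1.66 ± 0.0173 (SD, n = 3). Since first introns lie nearer to a TSS, the share was also taken within classes of distance, a split made after the data were seen. At 2 to 5 kb 67.1% of peaks and 51.2% of bases were in first introns (exact adjusted p = 1.63e-12). The shares were 57.3% and 42.6% at 5 to 10 kb (exact adjusted p = 1.49e-07), 51.1% and 32.2% at 10 to 20 kb (exact adjusted p = 1.81e-07), and 36.0% and 21.5% at 20 to 50 kb (exact adjusted p = 0.0233). First introns were thus ahead of their share of bases in each of the 4 classes with peaks.

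Arms differed as well. The X chromosome held 270 of the peaks, 1.29 times its share of bases (exact binomial test, adjusted p = 2.61e-05), and 3R held 230, 0.782 times (exact adjusted p = 2.61e-05). Chromosome 4, small and largely heterochromatic, held none in 0.429 Mb (exact adjusted p = 5.75e-05). Annotated transposable elements covered 31.9% of those bases on chromosome 4 and 7.93% on X. When such elements were counted as genes, the call on chromosome 4 was lost (exact adjusted p = 0.650). Arms 2L, 2R and 3L, at 1.05, 0.931 and 1.09 times, did not pass. Own lists gave a ratio of 1.28 ± 0.0347 for X and 0.722 ± 0.0426 for 3R (SD, n = 3). Transposable elements themselves held 1 of 1085 summits (0.0922%, exact 95% interval 0.00233% to 0.512%) and 8.34% of the bases (exact binomial test, p = 2.24e-39). Reads from repeated sequence may not be placed on 1 site, and the part of this in the values for elements, chromosome 4 and the far distance classes was not tested.

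**Figure D2:**
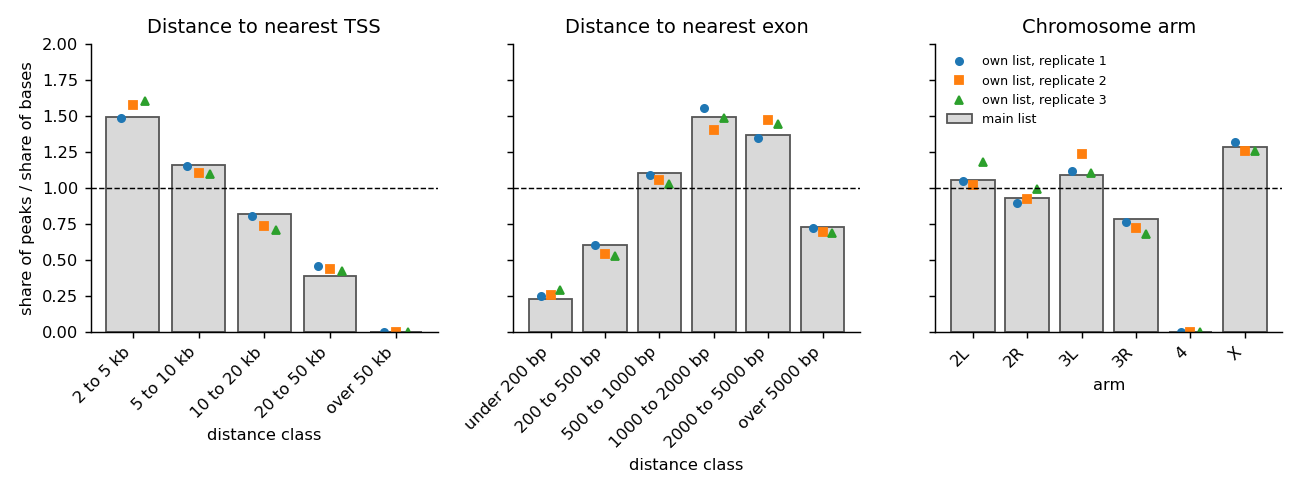
Share of distal intronic peaks divided by the share of bases that meet the rule (vertical axis), by distance to the nearest TSS, distance to the nearest exon and chromosome arm; bars are the main list, points the own lists of the 3 replicates, and the dashed line marks equal shares. The ratio runs from 1.49 at 2 to 5 kb from a TSS to 0 beyond 50 kb, and is lowest beside exons, at 0.226.

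The peaks were spread over 551 host genes, of which 537 code for protein and 14 are non-coding RNA genes. Where a summit lay in several genes, as 56 did, each counted. Of the hosts, 288 held 1 peak, 215 held 2 to 4 and 48 held 5 or more. Among 4216 protein-coding genes with any sequence that met the rule, 12.7% held a peak. Hosts were long, with a median of 29.4 kb against 7.58 kb for such genes without a peak. The share with a peak was 3.31% of genes with up to 5 kb of such sequence, 24.6% at 5 to 20 kb, 38.7% at 20 to 50 kb and 49.1% above 50 kb. Density per Mb went the other way in the longest class, with 36.3, 39.7, 31.6 and 13.8 peaks per Mb in the same 4 classes. Hosts also had a peak at their own promoter more often: 206 of 537 (38.4%), against 763 of 3679 (20.7%) of genes without a distal intronic peak. By class of length the shares were 33.3% and 21.3%, 37.9% and 20.3%, 38.4% and 19.0%, and 45.6% and 12.2%. These shares are given without a test.

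The host with the most peaks was kirre (X, 2740384 to 3134532), which encodes an immunoglobulin-type protein of muscle founder cells needed for myoblast fusion. It held 14 peaks, 4 of them in every own list, and its own lists gave 11, 5 and 7 for replicates 1, 2 and 3. With 288 kb of qualifying intron, this came to 48.7 per Mb. Eip75B, an ecdysone-induced nuclear receptor gene, held 10 in the main list and 7, 2 and 5 in the own lists. Only 1 of its 10 was in every own list. Denser were Raf and ftz-f1, with 9 each. Raf had 367 per Mb, 6 in every own list, and 6, 7 and 8 in the own lists. The nuclear receptor gene ftz-f1 had 244 per Mb, 4 in every own list, and 10, 5 and 5 in the own lists. In sbb, 9 peaks gave 192 per Mb, 6 of them were in every own list, and the own lists gave 9, 9 and 10. The 3 non-coding hosts among the 10 were lncRNA:CR44999 and lncRNA:CR44357 with 8 each and lncRNA:CR45939 with 7. The last of these overlaps ftz-f1 on the same strand, so summits in both were counted for each. The coactivator gene of Notch, mam, and the Smad cofactor gene Snoo had 7 each. The tagged gene itself, CG11695 (X, 11576883 to 11578806), is 1924 bp long, had no base that met the rule and held no distal intronic peak.

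Ecdysone pathway genes and genes of signalling pathways were dense in distal intronic peaks, and genes of ion channels and neurotransmitter receptors were not. The 11 lists were drawn up with earlier results of these data known, so the values are a description without a test. Of 14 ecdysone pathway genes with qualifying sequence, 8 held 35 peaks, or 71.9 per Mb, against 26.3 per Mb over all protein-coding genes with such sequence. Ecdysone genes had 61.6, 37.0 and 34.9 per Mb in the own lists, against 18.4, 14.8 and 13.04 for all. Eip75B held 10 of the 35, ftz-f1 9 and Hr4, another nuclear receptor gene, 5. Signalling genes had 55 peaks in 19 of 41 genes, or 69.9 per Mb, and 49.6, 39.4 and 36.9 in the own lists. They were led by mam, by pyd, for a scaffold of cell junctions, with 7, and by fz, for a Wnt and planar polarity receptor, with 6.

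Developmental transcription factor genes had 40.9 per Mb, with 66 peaks in 24 of 66 genes. After sbb, ush, for a cofactor of GATA factors, held 6 and luna, for a Krüppel-like zinc finger protein, held 5. Muscle and cytoskeleton genes had 49.0 per Mb (18 peaks, 9 of 25 genes), with 4 each in the polarity gene scrib and the integrin gene mew and 3 in shot, for a large linker of actin and microtubules. Axon guidance genes had 37.4 per Mb (19 peaks, 9 of 27 genes). Sema1a held 4 of these, and 3 each lay in NetA, a Netrin gene, and in fra, the gene of its receptor. Chromatin and insulator protein genes had 37.8 per Mb (10 peaks, 7 of 29 genes). Mi-2, the ATPase of the NuRD complex, held 3, HDAC4 2, and the Polycomb group gene Psc 1, of signal 373. Hox genes had 29.5 per Mb, close to the value for all genes. Their 7 peaks lay in Antp (4), Ubx (2) and Abd-B (1), and 1 of the 7, in Antp, was in every own list.

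Neural cell adhesion, RNA-binding and ion channel genes had fewer peaks per Mb than all protein-coding genes, and the first 2 lists were near the 13.8 per Mb of all genes with over 50 kb of qualifying sequence. Neural cell adhesion genes had 12.9 per Mb, with 43 peaks in 16 of 79 genes, and 8.09, 3.89 and 4.49 per Mb in the own lists. Of the 43, kirre held 14, and Ten-a and Ptp10D held 3 each, none of these 3 in either gene in every own list. RNA-binding protein genes had 12.8 per Mb (16 peaks, 10 of 22 genes), led by Rbfox1 with 4, shep with 3 and how with 2. Ion channel genes had 9.08 per Mb (9 peaks, 7 of 37 genes), with 2 each in Ca-beta and Elk and 1 in Ih. In the own lists ion channel genes had 7.07, 1.01 and 2.02 per Mb. Neurotransmitter receptor genes held a single peak in 25 genes, in Dop1R2, with a signal of 67.9, and no own list had a peak in that gene's distal introns. The list had 2.44, 2.44 and 0 per Mb in the own lists. A peak was held by 57.1% of ecdysone genes, 46.3% of signalling genes, 45.5% of RNA-binding protein genes, 20.3% of neural cell adhesion genes, 18.9% of ion channel genes and 4.0% of neurotransmitter receptor genes, against 12.7% of all protein-coding genes. Length differs between the lists and is not allowed for in these shares or densities.

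**Figure D3:**
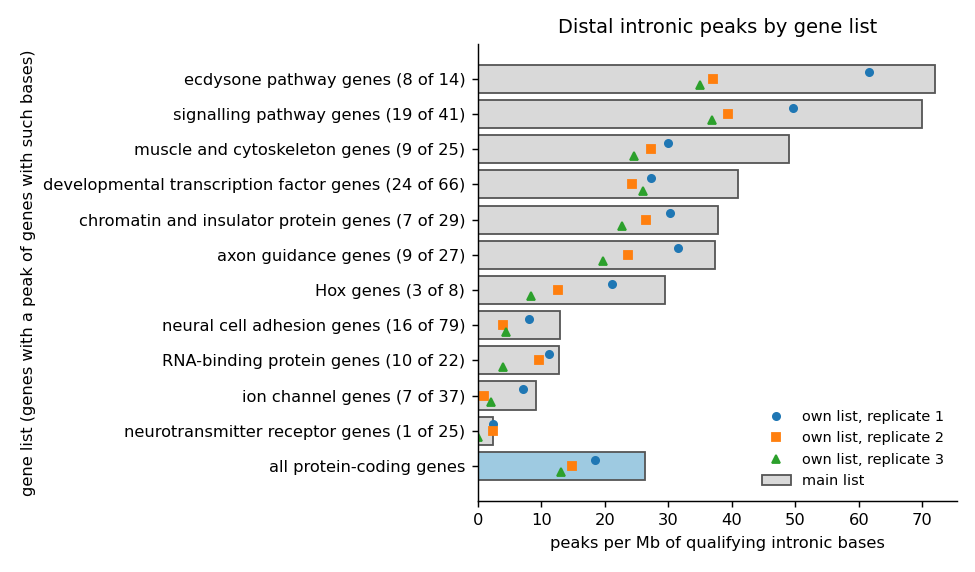
Distal intronic peaks per Mb of qualifying intronic bases (horizontal axis) in 11 gene lists and in all protein-coding genes (bottom bar), with the number of genes that held a peak; bars are the main list and points the own lists of the replicates. Ecdysone genes reach 71.9 and neurotransmitter receptor genes 2.44, against 26.3 for all protein-coding genes.

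The distal intronic summits sat in a narrow dip of G and C. Within 50 bp of the summit G and C made up 32.9% of bases, against 43.0% in flanks at 300 to 400 bp, and the summit was lower than its own flanks at 859 of 1085 peaks (exact sign test, two-sided, p = 5.35e-92). Own lists gave 32.1% ± 0.608 at summits and 43.4% ± 0.199 in flanks (SD, n = 3). Bins of 20 bp reached 32.1% at the summit and averaged 39.9% beyond 500 bp, so the flanks were above their surroundings. Summits lay below their flanks more often at distal intronic peaks (79.2%) than at promoter peaks (70.5%; Fisher's exact, adjusted p = 3.14e-07). The shares of 82.1% at intronic peaks of 500 to 2000 bp and 76.6% at intergenic peaks did not differ from it past the threshold (Fisher's exact, adjusted p = 0.188 and 0.242). Summit G and C was lowest in the strongest peaks. Across 5 equal classes of signal, from weak to strong, summit G and C was 39.2%, 33.4%, 31.7%, 30.3% and 29.9%. The weakest class, with signals of 2.96 to 79.9, holds most of the 87 peaks within 250 bp of a stronger record, whose median signal was 14.5. Their part in the value of that class was not tested. The summit base itself was repeat-masked in 24.1% of peaks, against 19.6% of bases 350 bp to the right and 19.8% to the left (exact McNemar test, p = 0.0144 and 0.0157). Of all qualifying bases, 22.3% in first introns and 25.2% in other introns were masked, so the summits lay between these shares and the flanks below both. Other classes rose at the summit too: promoter peaks had 25.6% masked in the bin at -10 bp and 14.9% in that at -350 bp.

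**Figure D4:**
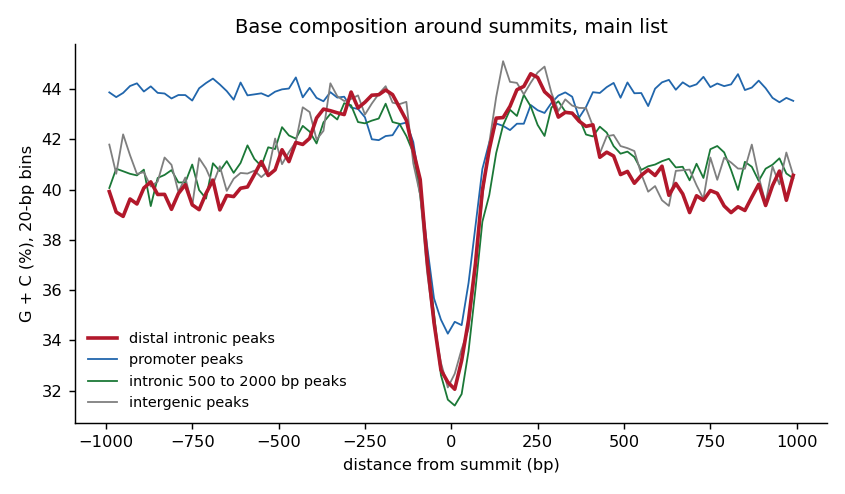
G and C content in bins of 20 bp (vertical axis) by distance from the summit (horizontal axis) for distal intronic, promoter, nearer intronic and intergenic peaks of the main list. All 4 classes dip at the summit; distal intronic peaks reach 32.1% and average 39.9% beyond 500 bp.

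Short A and T sequences led at the summits. Of 2080 sequences of 6 bases, each counted with its reverse complement, 747 (35.9%) differed between the summit window and a flank (exact McNemar test, adjusted p under 0.05), 273 commoner and 474 rarer at summits. Of the 273, 195 held at most 1 G or C. ATATTA occurred in 24.1% of summit windows, against 6.45% of flank windows (exact adjusted p = 3.96e-27), and AAATAT at 35.7% and 14.4% (exact adjusted p = 8.06e-26). In the own lists ATATTA was at 25.1%, 27.2% and 25.8% of summits, against 7.26%, 5.48% and 6.51% of flanks. Among sequences with 2 or more G or C, ACCTAT had the lowest p, at 4.42% and 0.922% (exact adjusted p = 1.03e-05). Summits and flanks differ in composition, and the part of that in these calls was not tested.

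Of 25 listed motifs, 10 (40.0%) differed between summit and flank by the same test, 6 commoner and 4 rarer. That share is near the 35.9% of all 2080 sequences of 6 bases, so it does not set the listed motifs apart. Summits held 32.9% G and C and flanks 43.0%, and the part of that in the motif calls was not tested. The list included ACAGTG, which came from an earlier analysis of these data and was listed without a known factor. It is counted among the 6 commoner (7.83% and 3.23%, exact adjusted p = 1.58e-05), and gives no separate support. TATAAA occurred in 24.6% of summit windows, against 8.57% of flank windows (exact adjusted p = 1.22e-22), and the forkhead core TGTTTA at 16.7% and 10.5% (exact adjusted p = 0.000175). The homeodomain core TAATTA was at 11.1% and 7.47%, the GATA core AGATAA at 9.59% and 5.99%, and the Stat92E consensus TTCNNNGAA at 3.96% and 2.12% (exact adjusted p = 0.0148, 0.01001 and 0.0421). The Pho core GCCAT was rarer, at 10.9% and 21.2% (exact adjusted p = 8.24e-10), as were CACACA (6.73% and 13.4%, exact adjusted p = 4.88e-06), the T-box core GGTGTG (2.67% and 5.53%, exact adjusted p = 0.00423) and GAGAG of GAGA factor (11.0% and 15.1%, exact adjusted p = 0.0148). The DRE, TATCGATA, was at 2 summits and 1 flank, and motif 1, GGTCACAC, at 2 of each. Matches were taken on both strands, and a match does not show that the factor binds.

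In the main list, few short sequences differed past the threshold between summits of distal intronic peaks and of other peaks. None of 75 comparisons of the 25 motifs with the other 3 classes passed Fisher's exact test after adjustment, and 9 had an unadjusted p under 0.05. TATAAA was at 24.6% of distal intronic summits, 21.2% of promoter summits, 24.1% of nearer intronic summits and 19.9% of intergenic summits. Against promoter peaks, 33 of the 2080 sequences (1.59%) passed, 4 commoner and 29 rarer at distal intronic summits. AGCGCG was at 0.737% of distal intronic summits and 3.12% of promoter summits (Fisher's exact, adjusted p = 0.0115), and AATATT at 22.6% and 17.2% (Fisher's exact, adjusted p = 0.0334). Of the 33, 28 held CG. These calls changed with the list: both other pair lists had 0, and the pooled list had 77. With windows of 100 bp, 147 sequences differed from promoter peaks and 4 motif comparisons passed.

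Beside the summits CAGTGC and ACAGTG had the lowest p, and 4 of the 10 sequences of lowest p held CAGTG on either strand. The windows at 50 to 150 bp on both sides were compared with 300 to 400 bp on both sides, a test added after the data were seen. Of the 2080 sequences, 141 (6.78%) passed the exact McNemar test, 91 commoner and 50 rarer. CAGTGC was beside 20.7% of distal intronic summits and in 5.53% of flanks (exact adjusted p = 4.86e-23). ACAGTG was beside 23.6% and in 7.19% (exact adjusted p = 4.86e-23), and AGTGTA beside 18.9% and in 6.18% (exact adjusted p = 1.60e-17). Of the 8 sequences that contain CAGTG on either strand, 7 were commoner and none rarer. The core CAGTG was read from the results of this same test, and sequences that contain it share occurrences. Counts of sequences with the core are therefore no separate support. In the own lists ACAGTG was beside 24.1% ± 1.30 of summits and in 7.07% ± 0.791 of flanks (SD, n = 3). At the summit itself it was in 7.83% of windows within 50 bp and in 3.23% of flanks on 1 side. The 23.6% counts windows on both sides of the summit, so more sequence was searched and these shares are not directly comparable. On a single side at 50 to 150 bp, 11.98% of peaks (left) and 10.7% (right) held a copy pointing toward the summit. The 7.83% counts copies in either direction. G and C made up 40.2% of the windows beside the summit and 43.0% of the flanks.

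These sequences had a direction. Read toward the summit from either side, 129 of the 2016 sequences that are not their own reverse complement (6.40%) were commoner in one direction than the other (exact binomial test on peaks with 1 direction alone, adjusted p under 0.05). All 129 leaned the same way in each own list. They were picked in the main list, and 63.0%, 49.0% and 47.6% of its distal intronic peaks were also in own lists 1, 2 and 3. The own lists thus hold much of the same DNA, and their direction is no separate support. CACTGA pointed toward the summit alone in 162 peaks and away alone in 34 (exact adjusted p = 7.08e-18). For ACAGTG the counts were 183 and 65 (exact adjusted p = 7.92e-12), and by own list 134 and 41, 113 and 31, and 92 and 26. Of the 7 called sequences with the core, 5 read CACTG toward the summit and 2, ACAGTG and CAGTGG, read CAGTG toward it, so the core itself had no single direction. For TACACT the counts were 150 and 46 (exact adjusted p = 9.28e-12). Runs of A did the same: AAAAAA was read toward the summit in 288 peaks and away in 115 (exact adjusted p = 2.12e-15). Of the 129, 26 held a run of 4 A read toward the summit and none a run of 4 T. Thus ACAGTG stood mostly to the left and CACTGT mostly to the right of the summit on the plus strand.

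Copies of ACAGTG pointing toward the summit within 200 bp had a median distance of 90.5 bp from it, with quartiles of 62.5 and 125.5 bp, and the own lists gave medians of 92.5, 88.5 and 91.5 bp. Of 369 such copies, 33 lay within 30 bp of the summit. Copies pointing away within 200 bp numbered 131, with a median of 99.5 bp, and of 92.5, 93.5 and 103.0 bp in the own lists. The medians of the 2 directions were thus close, and the limit of 200 bp bears on both. On the left side 130 peaks (11.98%) held a copy pointing toward the summit at 50 to 150 bp, and on the right 116 (10.7%). Both sides held one in 55 peaks (5.07%), and the product of the single shares is 1.28%. The 77 pairs of facing copies more than 50 bp out had a median of 174 bases between them, with quartiles of 156 and 230.0. Their gaps ran from 126 to 372 bases. The choice of a copy on each side, more than 50 bp out, bears on these gaps, as does the distance of single copies from the summit. Whether pairs prefer a spacing was not tested. The share with a copy pointing toward the summit was 9.68%, 12.4%, 19.8%, 19.8% and 26.3% across 5 classes of signal, from weak to strong. Here too the weakest class holds most of the 87 peaks beside a stronger record, and their part in its share was not tested.

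**Figure D5:**
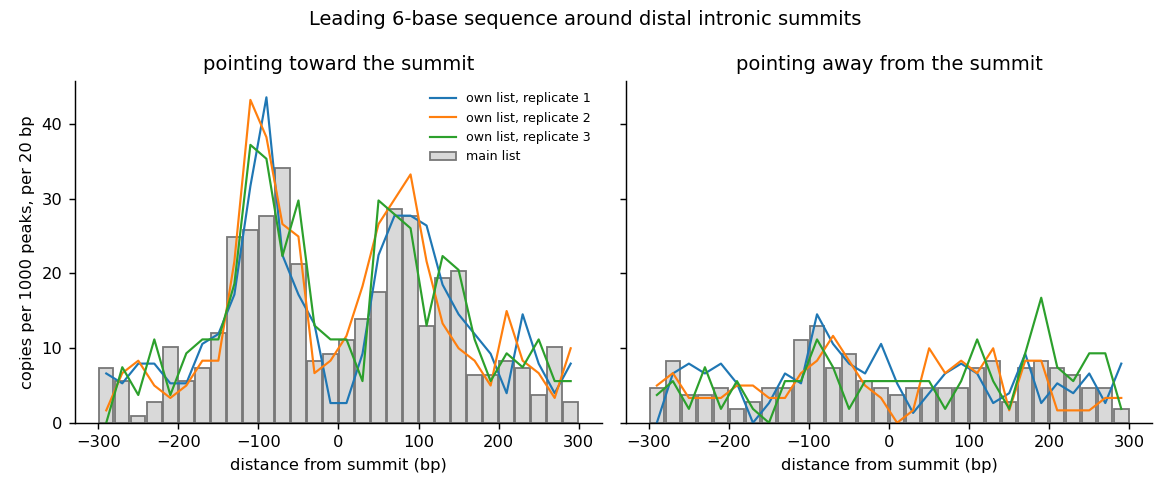
Copies of ACAGTG per 1000 distal intronic peaks in bins of 20 bp (vertical axis) by distance from the summit (horizontal axis), pointing toward the summit (left panel) or away from it (right panel); bars are the main list and lines the own lists of the replicates. Copies that point toward the summit form 2 humps with a gap at the summit, in the main list and in each own list. Within 200 bp their median distance in the main list is 90.5 bp, against 99.5 bp for copies that point away.

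Single copies were also compared with other classes, while facing pairs were counted at distal intronic peaks alone. At least 1 copy of ACAGTG pointing toward the summit at 50 to 150 bp was found at 191 of 1085 distal intronic peaks (17.6%) and at 285 of 2150 promoter peaks (13.3%), a difference of 4.35 points (Fisher's exact, adjusted p = 0.00334). Nearer intronic peaks had 143 of 787 (18.2%) and intergenic peaks 97 of 603 (16.1%), and neither differed past the threshold (Fisher's exact, adjusted p = 0.760 and 0.687). The positions of fragment ends were not analysed here, and neither was an input library, so the part of fragmentation and of library preparation in the dip of G and C, in the direction of the sequences and in their spacing was not tested.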

How the data were processed

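Chromatin of whole embryos was precipitated with an antibody against GFP in 3 biological replicates of 1 group. The analysis began from peak lists on dm6, per the labels. Sources used here do not name the aligner or peak caller or give the read depth, so no counting interval on signals is given. The deposited signal of a peak is the authors' value of unstated scale. The deposited score is scaled from the global irreproducible discovery rate (IDR), which compares ranks between a pair of peak sets; its lowest value in the main list was 830. In the deposited ranked lists the authors put −log10 of the IDR beside each record.

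The main list is the authors' conservative list. By identical peak ends it compared replicates 1 and 3 (73.8% and 67.5% of records), but its records come from pooled libraries. Setting a replicate aside in the other pair lists leaves it out of the IDR comparison alone. Only the own lists are free of the other libraries. They share many positions with the main list, so the spread of sequence values over them partly reflects the same DNA. Peaks on 6 arms were kept, 1 per summit, and none ended beyond its arm. Genes came from Ensembl release 115 without its 5809 transposable element entries. "Qualifying" bases lie in a gene, in no exon and over 2000 bp from a TSS, without assembly gaps. Sequence and soft-masking came from the RefSeq copy of the assembly.

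Windows within 50 bp of summits were compared with flanks at 300 to 400 bp, on 1 side by the parity of the summit coordinate for motifs and 6-base sequences and on both sides for G and C. Tests were two-sided and exact, with Benjamini-Hochberg adjustment within each family at 0.05, in Python 3.11.15 with numpy 2.4.6, pandas 2.3.3 and scipy 1.17.1. They treat peaks as independent, and neighbouring peaks are not. Simulated data with planted sequences and known densities were used to check the 6-base, direction and TSS distance tests alone. The simulated summit and flank windows had the same base composition, unlike the real ones. The members, gene lists and tests were chosen with earlier results of these data known. Named genes are the hosts of the 15 strongest peaks found in every own list, the 10 hosts with most peaks, up to 3 hosts in each of 11 gene lists, and CG11695; CG32264 was added after its value was seen. Of the listed symbols, 4 were not in the annotation. The sequence at 1 strong peak is not reported here.

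Alternatives were other peak lists, a stricter IDR, merged summits, other limits of distance, TSSs of protein-coding genes, 50% reciprocal overlap, other windows and flanks, stronger peaks alone, and peaks without masked bases. Tests beside the summit and of direction, first introns by distance, transposable elements, and the alternatives with elements as genes, unmasked summits and under 25% masked bases were chosen after the data were seen.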

Additional observations from a re-analysis of the deposited data

How the results depend on the processing

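G and C below the flanks at summits and the ratio of first introns kept their direction and side of the threshold under every alternative run for them. ACAGTG and CAGTGC beside the summit and the direction of ACAGTG were lost only where no masked base was allowed, which left 39 peaks. Of the 5 classes of distance to a TSS, 4 or 5 passed, and the one lost was 5 to 10 kb. Other results moved as follows, and the cause was not tested unless fewer peaks are given.

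The difference in peaks above the median signal was -9.27 to -8.15 points against promoter peaks and -5.86 to -3.56 against nearer intronic peaks with a replicate left out of the IDR comparison; both of the first passed, and one of the second. It also passed at -4.88 and -5.72 in the pooled list, -11.2 against promoter peaks in own list 1, -15.3 and -7.63 in own list 2, -16.2 and -14.7 at a global IDR of 0.001, and at -7.59 against nearer intronic peaks with a limit of 1000 bp. Against intergenic peaks it turned to -1.29 in own list 2 and -1.40 at the strict IDR. The share in all own lists was 4.90 points above intergenic peaks with a limit of 1000 bp, and -6.57 to -3.70 points from promoter peaks with 1 own list left out. The distal intronic share was 19.8% in own list 3, 31.3% at 1000 bp, 11.97% at 5000 bp and 24.1% with TSSs of protein-coding genes.

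Sequences of 6 bases that differed from promoter peaks numbered 0 to 0 with a replicate left out, 77 in the pooled list, 0, 3 and 0 in the own lists, 0 at the strict IDR, 54 at 1000 bp, 0 at 5000 bp, 1 with no masked base, 147 with windows of 100 bp and 69 in the stronger peaks. Beside the summit there were 254 pooled, 59 in own list 3, 74 at the strict IDR, 269 at 1000 bp, 38 at 5000 bp, 0 with no masked base and 76 in the stronger peaks. With a direction there were 67, 77 and 50 in the own lists, 67 at the strict IDR, 58 at 5000 bp, 0 with no masked base and 78 in the stronger peaks. Between summit and flank there were 393 in own list 3, 405 at 5000 bp and 0 with no masked base, and motifs numbered 5, 5 and 0. Motifs against other classes numbered 1 in own list 1, 1 at 5000 bp, 4 with windows of 100 bp and 3 in the stronger peaks. With under 25% masked in each window, chosen after the data were seen, 305 peaks were left and the counts were 0, 17, 15, 82, 5 and 2, and GAGAG turned to 0.33 points commoner at summits.

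Masking at the summit exceeded the right and left flank by 3.53 and 3.35 points in own list 3, 4.63 and 3.43 at the strict IDR, 2.98 and 1.75 at 5000 bp, and the left by 3.69 in own list 1, none past the threshold. At 5000 bp 3 classes of exon distance passed. Arm 2L had a ratio of 0.987 at 1000 bp. No paired analysis was possible because there was 1 group.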
